A study of Mus musculus with 5 samples.

Results

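The genes described here are the cyclins, cyclin-dependent kinases (CDKs) and CDK inhibitors that govern the G1 phase of the cell cycle, together with the retinoblastoma gene that they act on. The members were the 10 genes Ccnd1, Ccnd2, Ccnd3, Ccne1, Cdk2, Cdk4, Cdk6, Cdkn1a, Cdkn1b and Rb1, chosen by symbol, and every probe set annotated to exactly 1 of them was kept. That gave 22 probe sets of the 20380 with a single gene, and 10 of 12393 measured genes. A probe set is a group of short probes on the array that reports 1 signal, and 5 of the genes had several of them.

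The tissue came from E10.5 mouse embryos of wild-type genotype and held the pharyngeal arches, the paired outgrowths under the hindbrain. The labels also name it as containing the second heart field, a source of heart muscle progenitors. There were 5 samples in 1 group, each an individual tissue isolate, and the mice were of 129P2/OlaHsd background with 2 generations of backcrossing to C57BL/6. No treatment and no second genotype or stage was included, so the comparisons open to these data are the signal of a probe set against a background level and the spread between the samples. Whether isolates shared a litter is not stated, so p-values apply to these samples only. The p-values and standard errors (SE) for signal against background are moderated. They also draw on the variance of other probe sets, not on the 5 samples alone.

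D-type cyclins bind Cdk4 and Cdk6 when growth factors call a resting or newly divided cell into the cycle, and cyclin E binds Cdk2 later in G1. Both kinds of complex phosphorylate the retinoblastoma protein, which then releases E2F transcription factors and lets genes of DNA synthesis be transcribed. The inhibitors Cdkn1a (p21) and Cdkn1b (p27), of the CIP/KIP family, bind the cyclin and CDK complexes, and they are known for holding cells out of the cycle as they stop dividing.

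The arrays were alike in overall signal, with medians from 28.1 to 32.2 units of scaled signal. To judge which signals exceeded background, a level was set for each array at the 95th percentile of 228 probe sets of 188 genes restricted to sense organs, germ cells, glands and lymphocytes, and it lay between 15.8 and 23.2. A higher level, from 66.4 to 104, resulted when widely expressed genes with similar names were added to that set. Replicate 4 stood apart in its sex-linked genes, with Xist at 916 against 1.28 to 26.3 in the others and the Y-linked Eif2s3y at 20.1 against 769 to 968. Of 8 markers of arch mesenchyme and crest, 7 were above background, among them Twist1 (566 ± 85.5, SD, n = 5) and Prrx1 (1063 ± 216). Of 6 second heart field markers, 2 were, Isl1 (1387 ± 223) and Mef2c (210.0 ± 26.0), while Tbx1 (28.2 ± 10.9), Fgf10, Fgf8 and Hand2 were not. The 7 neuron and 5 epithelium markers were all above background, as were 3 of 5 red cell, 3 of 5 cardiac muscle, 2 of 5 endothelium and 0 of 5 leukocyte markers. The tissue was measured whole, so fewer cells of a type and less RNA per cell cannot be told apart.

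Nearly the whole set of G1 genes gave signal in the arches. By limma's one-sided test of log2 signal against the level, with Benjamini-Hochberg adjustment over 22626 probe sets, 20 of the 22 member probe sets (90.9%) were above background, beside 50.4% of all probe sets. By gene it was 9 of 10, beside 54.3% of genes, with Cdk6 as the gene not called. At the higher level 15 of 22 probe sets and 7 of 10 genes passed, beside 26.4% of probe sets and 30.3% of genes, and Ccnd3 and Cdkn1a then joined Cdk6. The median excess over the level was 3.36 log2 units for the 22 probe sets and 0.55 for all. Probe sets of 1 gene share a transcript and are not independent, and 7 of the 22 belonged to Ccnd2. The members were chosen with earlier results of these data known, so these shares are a description. Signals of different probe sets depend on how well each binds, so levels are compared between samples and not between genes.

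**Figure D1:**
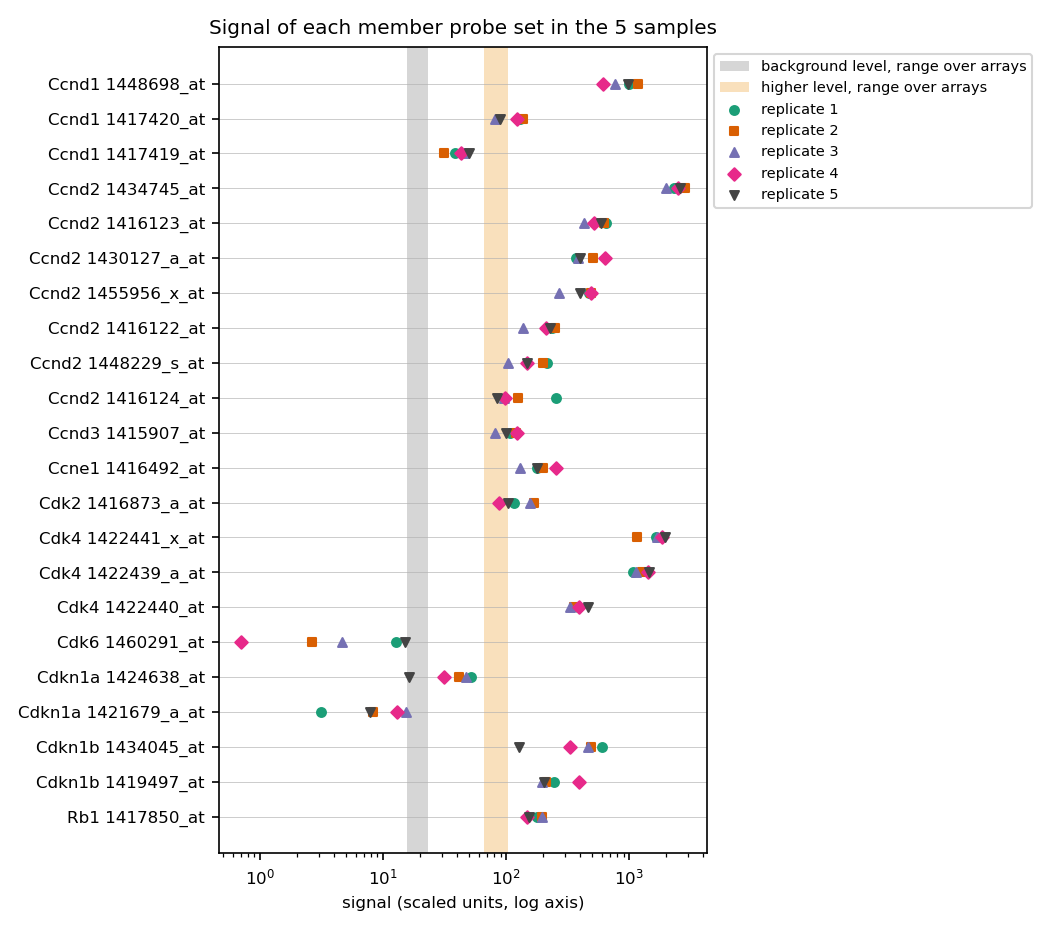
Each row is a member probe set, each symbol a sample, and the x axis is the signal in scaled units on a log axis; the grey and orange bands span the background level and the higher level over the 5 arrays. Cdk6 and Cdkn1a 1421679_a_at lie left of the grey band in every sample, and Cdkn1a 1424638_at and Ccnd1 1417419_at lie between the bands or, for Cdkn1a in replicate 5, at the grey band.

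All 4 cyclin genes were above background, by all 12 of their probe sets. Ccnd2, the D-type cyclin with the most probe sets here, gave 2296, 2812, 1983, 2494 and 2581 in replicates 1 to 5 by its brightest probe set, 1434745_at. Replicate 3 was lowest, and the highest sample exceeded it 1.42-fold. The excess over background was 6.99 ± 0.13 log2 units (moderated SE, n = 5, limma, adjusted p = 1.69e-31). The other 6 probe sets of the gene had mean signals from 131 to 560.0, and all 6 were called. By 1416123_at the samples gave 651, 621, 426, 518 and 585, by 1455956_x_at 470.4, 486, 268, 489 and 394, and by 1448229_s_at 214, 199, 104, 148 and 147, and in each replicate 3 was lowest. Of the 7 probe sets, 5 were lowest in replicate 3, among them 1416122_at with 137 there against 209.7 to 251 in the other samples. The exceptions were 1430127_a_at, lowest in replicate 1 (369), and 1416124_at, lowest in replicate 5 (84.6). In 1416124_at the samples read 252, 124, 96.6, 97.3 and 84.6, so replicate 1 stood well above the rest. The names 1448229_s_at and 1455956_x_at carry suffixes that the maker gives to probe sets that can also bind other transcripts.

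Ccnd1, the D-type cyclin best known as a target of growth factor and Wnt signalling, gave 1003, 1176, 759.9, 614 and 969 by 1448698_at. Replicate 4 was lowest and replicate 2 highest, a 1.91-fold span. The excess was 5.54 ± 0.16 log2 units (limma, adjusted p = 1.02e-25). The second probe set, 1417420_at, gave 129, 136, 81.0, 124 and 88.7, with replicate 3 lowest and replicate 4 close to replicates 1 and 2. The dimmest, 1417419_at, gave 38.4, 31.6, 45.7, 42.7 and 49.6, with replicate 2 lowest. The 3 probe sets thus put the lowest signal of Ccnd1 in 3 different samples, and the low value of replicate 4 in the brightest of them was not seen in the others. At the higher level 1448698_at alone passed of the 3.

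Ccnd3, the D-type cyclin known for roles in lymphocytes and muscle, gave 108, 121, 81.7, 123 and 101 by its single probe set, 1415907_at. Every sample was above the main level, and replicate 3 was lowest. The excess was 2.47 ± 0.18 log2 units (limma, adjusted p = 1.43e-14). It fell short of the call at the higher level, with an excess of 0.25 (limma, adjusted p = 0.329).

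Ccne1, which encodes cyclin E1, the Cdk2 partner that acts late in G1, gave 178, 199, 129, 252 and 178 by 1416492_at. Replicate 3 was lowest and replicate 4 highest, a span of 1.96-fold. The excess was 3.27 ± 0.17 log2 units (limma, adjusted p = 2.43e-18).

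The kinases were called by 4 of 5 probe sets. Cdk4, a kinase partner of the D-type cyclins, gave 1655, 1155, 1674, 1851 and 1954 by 1422441_x_at, 1063, 1259, 1126, 1425 and 1449 by 1422439_a_at and 384, 355, 331, 387 and 459 by 1422440_at. All 3 were highest in replicate 5, and they were lowest in replicates 2, 1 and 3. Their excess ran from 4.32 ± 0.16 to 6.42 ± 0.13 log2 units, and all 3 passed at the higher level. The low value of replicate 2 appeared in 1422441_x_at, a probe set of the less specific class, and not in the other 2. Between 1422439_a_at and 1422440_at the log2 difference varied by 0.41 over the samples, against 0.76 between 1422441_x_at and 1422439_a_at.

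Cdk2, the kinase of cyclin E, gave 117, 169, 157, 86.8 and 103 by 1416873_a_at. Replicates 2 and 3 were high and replicate 4 was low, a 1.95-fold span, with an excess of 2.69 ± 0.20 log2 units (limma, adjusted p = 1.29e-14). In replicate 3 the kinase lay 0.36 log2 units above its own mean, while Ccne1 lay at -0.51. In replicate 4 the deviations were -0.50 for Cdk2 and 0.46 for Ccne1. In replicates 1, 2 and 5 both genes deviated the same way. Cdk2 lay at -0.07, 0.47 and -0.25 there, and Ccne1 at -0.04, 0.12 and -0.04. No relation between the genes was tested. At the higher level Cdk2 was called narrowly, with an excess of 0.46 (limma, adjusted p = 0.0423).

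Cdk6, the second kinase for D-type cyclins, was the member without a call. Its probe set, 1460291_at, gave 12.8, 2.67, 4.63, 0.709 and 15.2, below the level of the array in all 5 samples. The mean excess was -2.00 ± 0.67 log2 units (limma, adjusted p = 1). With 1 probe set this shows that this probe set was not above background, not that the transcript was absent.

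The promoters of a called and of the uncalled kinase, Cdk2 and Cdk6, are shown for comparison from RefSeq (GRCm38.p6), from 250 bases before to 50 bases after the start of transcription, 5′ to 3′ on the strand of the gene. Capitals mark matches on either strand to 4 motifs, which can overlap. The E2F motif was searched as TTTCGCGC, TTTGGCGC, TTTCCCGC and TTTGCCGC. The GC box, the site of Sp1 factors, was searched as GGGCGG. The TATA box, which places the start of transcription in some promoters, was searched as TATAAA. The box bound by the factor NF-Y was searched as CCAAT. The Cdk2 window lies at chr10:128705002-128705301 on the minus strand and the Cdk6 window at chr5:3343643-3343942 on the plus strand.
Cdk2: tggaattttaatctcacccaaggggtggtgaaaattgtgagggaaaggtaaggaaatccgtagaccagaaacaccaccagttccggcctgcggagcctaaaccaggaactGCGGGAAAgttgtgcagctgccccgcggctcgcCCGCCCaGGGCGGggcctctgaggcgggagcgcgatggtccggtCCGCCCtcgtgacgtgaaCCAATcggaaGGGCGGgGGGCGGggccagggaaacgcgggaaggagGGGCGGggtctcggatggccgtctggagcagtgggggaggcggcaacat
Cdk6: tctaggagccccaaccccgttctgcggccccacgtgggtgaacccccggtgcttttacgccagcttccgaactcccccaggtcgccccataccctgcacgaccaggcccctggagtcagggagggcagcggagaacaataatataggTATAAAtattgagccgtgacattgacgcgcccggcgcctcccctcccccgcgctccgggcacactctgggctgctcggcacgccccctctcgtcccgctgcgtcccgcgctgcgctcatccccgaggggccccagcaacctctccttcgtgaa
The Cdk2 window held an E2F motif, read as GCGGGAAA and starting 140 bases before the start, 6 GC boxes and 1 CCAAT box. The Cdk6 window held the letters TATAAA, starting 103 bases before the start, and none of the other motifs. Whether these letters act as a TATA box was not tested. Of the other member windows, that of Ccne1 held 4 GC boxes, that of Cdk4 3 and each of those of Ccnd3 2. Windows were at hand for 7 members, 9 windows in all. The E2F motif was in 1 of the 9, beside 2.26% of all 32851 windows, the TATA box in 1 (13.6% of all), the GC box in 7 (35.7% of all) and the CCAAT box in 3 (37.4% of all). These are matches of letters and show neither binding nor its absence. The 9 member windows held from 54.7 to 76.0% G and C, beside a median of 52.7% over all windows. The part of base composition in the motif shares was not tested.

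Both inhibitors were called, Cdkn1b by both of its probe sets and Cdkn1a by 1 of 2. Cdkn1b, whose protein p27 accumulates as cells leave the cycle, gave 601, 492, 464, 331 and 128 by 1434045_at, with replicate 5 far below the others. The highest sample exceeded the lowest 4.71-fold, the widest span among the 20 member probe sets with a mean above the level. The second probe set, 1419497_at, gave 243, 212, 197, 391 and 204, with replicate 4 above the rest and replicate 5 among them. The log2 difference between these 2 probe sets varied by 1.99 over the samples, so they did not report the same pattern of Cdkn1b between samples. The excess was 4.23 ± 0.41 and 3.66 ± 0.17 log2 units (limma, adjusted p = 6.16e-05 and 6.75e-20).

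Cdkn1a, the inhibitor p21 that p53 induces after DNA damage, gave 51.6, 41.4, 47.5, 31.0 and 16.4 by 1424638_at. It was above the level in 4 of 5 samples and below it in replicate 5. The excess was 0.87 ± 0.26 log2 units (limma, adjusted p = 0.00203), and it was lost with the 99th percentile as the level (excess 0.15, adjusted p = 0.577) and at the higher level (excess -1.35). The other probe set, 1421679_a_at, gave 3.11, 8.37, 15.5, 13.0 and 7.78 and was below the level in all 5 samples. The call of Cdkn1a therefore rests on 1 dim probe set.

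The promoters of the inhibitors are given because 1 probe set of each was lowest in the same sample. The windows and capitals are as above, at chr6:134920151-134920450 for Cdkn1b and at chr17:29093519-29093818 for the second of 2 starts of Cdkn1a, both on the plus strand.
Cdkn1b: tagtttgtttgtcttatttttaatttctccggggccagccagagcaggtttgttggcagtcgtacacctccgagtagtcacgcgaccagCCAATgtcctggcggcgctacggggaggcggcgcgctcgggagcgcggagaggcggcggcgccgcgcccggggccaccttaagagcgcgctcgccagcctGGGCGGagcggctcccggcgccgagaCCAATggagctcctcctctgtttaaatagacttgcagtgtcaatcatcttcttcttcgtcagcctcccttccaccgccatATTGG
Cdkn1a: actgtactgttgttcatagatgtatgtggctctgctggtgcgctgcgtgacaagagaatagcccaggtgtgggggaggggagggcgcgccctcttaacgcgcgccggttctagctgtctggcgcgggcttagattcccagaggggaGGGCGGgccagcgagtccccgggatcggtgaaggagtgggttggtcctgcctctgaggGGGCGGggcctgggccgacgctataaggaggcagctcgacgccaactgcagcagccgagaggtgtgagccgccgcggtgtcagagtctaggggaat
The Cdkn1b window held 3 CCAAT boxes and 1 GC box, and the Cdkn1a window held 2 GC boxes and no CCAAT box. Neither held the E2F motif or the TATA box in the spelling searched. The consensus p53 response element without spacer was in 0 of the 9 member windows and in 3 of all 32851. Only matches in every base were counted. The window of the first Cdkn1a start, not printed here, held a near match, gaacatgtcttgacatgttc, that this search left out. A count of 0 thus does not show that Cdkn1a lacks such an element.

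Rb1, the pocket protein that holds E2F factors, gave 177, 195, 195, 148 and 154 by 1417850_at. The samples differed by 1.32-fold at most, the narrowest span among the 20 probe sets. The excess was 3.18 ± 0.18 log2 units (limma, adjusted p = 8.10e-18).

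The spread between samples was then compared with that of other genes. An F test set the variance of each probe set against limma's trend of variance on signal, over 12843 probe sets with a mean above the level. Of the 20 member probe sets, 0 passed after Benjamini-Hochberg adjustment, beside 0.226% of all, and 2 did at an unadjusted p below the threshold, beside 5.31% of all. The median ratio of variance to trend was 1.41 for the members and 0.89 for all, and the median SD was 0.35 and 0.32 log2 units. The 2 were Cdkn1b 1434045_at, whose variance ratio was 9.91 (F test with limma, adjusted p = 0.243), and Ccnd2 1416124_at, whose ratio was 3.81 (adjusted p = 0.886). Without a filter on low signal Cdkn1b passed (adjusted p = 0.0223). Without replicate 5 the ratio of Cdkn1b 1434045_at was 1.75, and without replicate 1 that of Ccnd2 1416124_at was 0.479, below the trend, so both rested on 1 sample each.

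**Figure D2:**
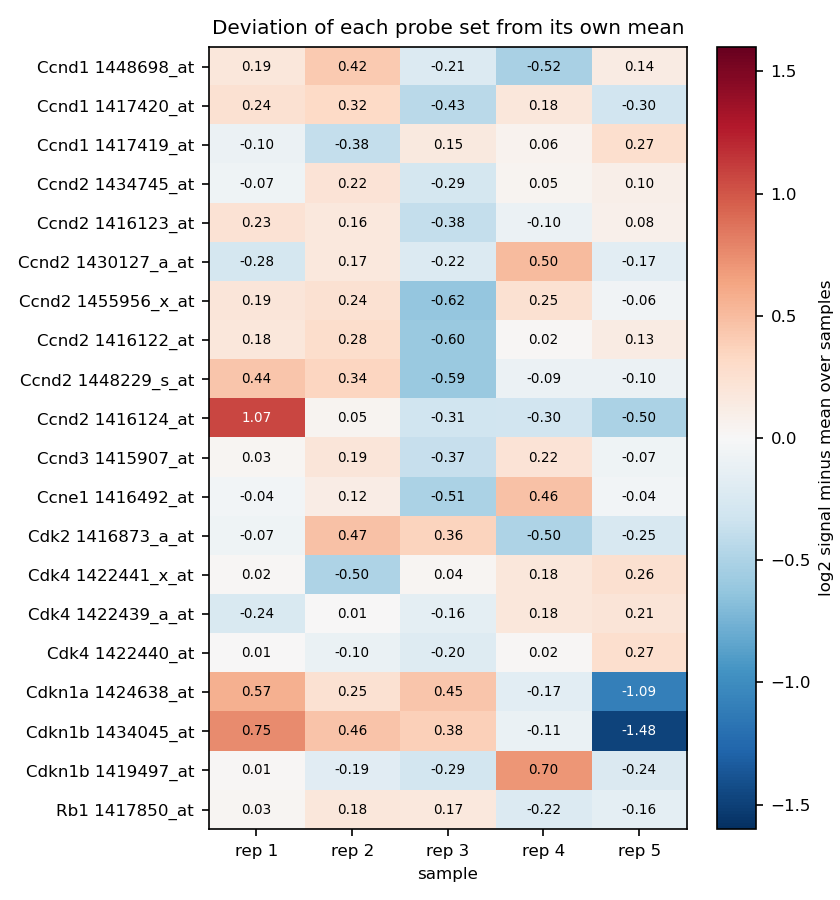
Rows are the 20 member probe sets with a mean above background, columns the 5 samples, and each cell gives the log2 signal minus the mean of that probe set, red for above and blue for below. Replicate 3 is blue in most cyclin rows, and the deepest blue is replicate 5 of Cdkn1b 1434045_at (-1.48) and Cdkn1a 1424638_at (-1.09).

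Most cyclin probe sets were lowest in the same sample, replicate 3. Of the 20 member probe sets, 10 were lowest in replicate 3, beside 21.7% of the 12843. Replicates 1, 2, 4 and 5 were lowest for 2, 2, 3 and 3 of them, beside 22.5%, 15.9%, 22.7% and 17.2% of all. Replicate 3 was highest for 0, beside 19.5%, and replicates 1, 2, 4 and 5 were highest for 5, 6, 5 and 4, beside 19.2%, 15.4%, 22.9% and 23.0%. Of the 10 that were lowest in replicate 3, 8 were among the 12 cyclin probe sets, 5 of these from Ccnd2 and 1 each from Ccnd1, Ccnd3 and Ccne1, and the others were Cdk4 1422440_at and Cdkn1b 1419497_at. With 1 probe set per gene, the brightest, 3 of 9 called genes were lowest in replicate 3 (Ccnd2, Ccnd3 and Ccne1) and 3 in replicate 4 (Ccnd1, Cdk2 and Rb1). The median deviation of the member probe sets in replicate 3 was -0.25 log2 units, against 0.0015 for all, and it was 0.18 in replicate 2, against 0.014. No member's own difference passed the variance test, and no test was made of the count. After quantile normalization 1 member probe set was highest in replicate 3, and 10 were still lowest.

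**Figure D3:**
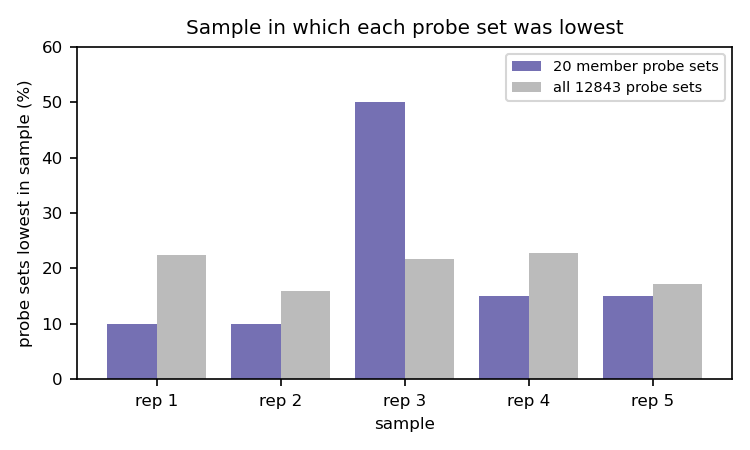
Bars give the share of probe sets, in percent, whose lowest signal fell in each sample, in purple for the 20 member probe sets and in grey for all 12843 with a mean above background. Replicate 3 holds 10 of the 20 members and 21.7% of all probe sets.

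Some marker lists were also lowest in replicate 3. The mean deviation there was -0.69 log2 units for 3 cardiac muscle markers, from -1.29 for Myl7, which was below the level of that array, to -0.44 for Tnnt2 and -0.34 for Actc1. It was -0.26 for 5 epithelium markers, from -0.72 for Krt8 to -0.01 for Cldn6. For 7 markers of arch mesenchyme and crest it was -0.23, from -0.64 for Dlx2 to 0.38 for Tfap2a. Prrx1, at 0.06, was also above its own mean. Each of these list means was the lowest of the 5 samples for its list. Summed over each whole list, the signal ran from 179 to 319 for the cardiac markers, from 603 to 794 for the epithelium markers and from 4286 to 5590 for the mesenchyme and crest markers. Neuron markers lay at 0.31, their highest, and second heart field markers at 0.011. Red cell markers lay at 0.19, leukocyte markers at 0.11 and endothelium markers at -0.16. The part of these lists in the cyclin values was not tested.

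The profile of Cdkn1b 1434045_at was compared with that of every other called gene, because Cdkn1b had the largest SD among called members. The measure was the mean absolute difference of centred log2 signal over the 5 samples, 1 brightest probe set per gene, over 6723 genes. The 5 nearest were Arcn1 (0.16), Cdkn1a (0.18), Rps25 (0.20), Rnf123 (0.23) and Iqsec1 (0.23), against a median of 0.68 over all. They were picked as the nearest of 6723 genes, so lying far below the median carries no weight. In replicate 5 Cdkn1a (16.4), Rnf123 (18.2) and Iqsec1 (20.7) were below the level of that array, 23.2. Arcn1 gave 472, 450, 456, 279 and 147, and Rps25 gave 443, 369, 265, 188 and 67.7, so both were lowest in replicate 5 like Cdkn1a and Cdkn1b. Of those outside the members, Arcn1 and Iqsec1 had a second probe set. That of Arcn1 gave 93.4, 59.9, 79.0, 57.2 and 71.6 and was not lowest in replicate 5, and that of Iqsec1 gave 41.3, 18.1, 25.7, 26.4 and 16.8 and was. With 5 samples no correlation was computed, and the nearness is a description.

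**Figure D4:**
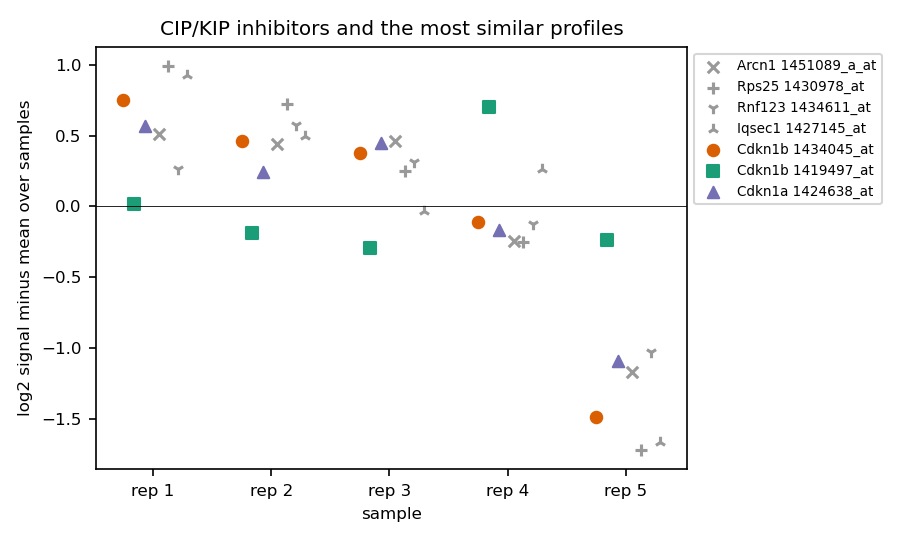
The x axis gives the 5 samples and the y axis the log2 signal minus the mean of each probe set; colours mark 3 probe sets of the inhibitors and grey signs the other genes nearest to Cdkn1b 1434045_at. Replicate 5 is low for all except Cdkn1b 1419497_at (-0.24), whose highest value is replicate 4 (0.70).

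Beside these low values, the 3 second heart field markers with a mean above the level had a mean deviation of -0.33 in replicate 5, with Tbx1, which was not called, at -0.81, Isl1 at -0.14 and Mef2c at -0.05. The called Isl1 and Mef2c were lowest in replicates 4 and 3, and the sum over all 6, from 1398 to 1886, was lowest in replicate 4. Cardiac muscle markers lay at 0.59 in replicate 5, with Myl7 at 1.16, Tnnt2 at 0.42 and Actc1 at 0.18. Red cell markers lay at 0.36 (summed signal 8418 to 16743), and each mean was the highest of the 5 samples for its list. The summed cardiac signal was instead highest in replicate 2, at 319 against 302 in replicate 5. The uncalled cardiac markers Myh6 and Myh7 lay at -1.26 and -3.17 in replicate 5. Of the leukocyte markers, none of them called, the 2 with a mean above the level lay at 0.81 there, and the sum over all 5 ran from 55.7 to 143. Neuron markers lay at 0.040 there and at -0.52 in replicate 4 (summed signal 2679 to 4796). The ratio of 3′ to 5′ control signal, a sign of RNA quality, was 2.89 in replicate 5 and 2.78 to 3.73 over all samples for Gapdh, and 4.69 and 3.36 to 4.82 for Actb. Replicate 5 was inside the range of the others in both ratios, and replicate 3 gave 3.12 for Gapdh and 4.58 for Actb. The part of RNA quality in the cyclin and inhibitor values was not tested. The part of the marker lists in the inhibitor values was not tested.

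Other genes of the G1/S machinery were mostly called too. Of 38 genes in 5 lists 34 were measured, and 26 of these (76.5%) were above background, beside 54.3% of genes; 18 passed at the higher level. The lists were chosen with earlier results of these data known, so these counts are a description. Among the other inhibitors 2 of 5 were called. Cdkn1c, the third CIP/KIP member (332 ± 90.0, excess 4.08 ± 0.17), and the INK4 gene Cdkn2d (43.7 ± 10.6, excess 1.16 ± 0.21) passed. The INK4 genes Cdkn2a (3.58 ± 2.80), Cdkn2b (8.34 ± 6.23) and Cdkn2c (15.2 ± 3.23), whose proteins bind Cdk4 and Cdk6 directly, were not, each with an adjusted p of 1 (limma).

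The list of other G1/S cyclins and CDKs gave 3 of 4, namely Ccna2 (1166 ± 209, excess 5.92 ± 0.14), Cdk1 (897 ± 134) and Ccne2, the second cyclin E (84.4 ± 10.1). Ccna1, a cyclin of germ cells, was not called (21.5 ± 3.75; limma, adjusted p = 0.508).

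Pocket proteins and E2F factors gave 6 of 9. The E2F partner Tfdp1 (1461 ± 107, excess 6.26 ± 0.14), the pocket protein Rbl1 (219 ± 8.70), E2f6 (196 ± 31.5) and E2f5 (107 ± 23.6) were among them. E2f4 (21.1 ± 16.2), Rbl2 (16.8 ± 7.22) and E2f3 (23.4 ± 6.44) were not called. E2f1, an activator of replication genes, gave 109, 147, 64.8, 85.2 and 72.5 and E2f8 gave 94.8, 90.1, 41.8, 84.9 and 63.3, both called and both lowest in replicate 3. These 2 were chosen after their values were seen, and the other 4 called genes of the list were lowest in replicate 1 (Tfdp1) or 5 (Rbl1, E2f5 and E2f6). Of all 26 called genes of the 5 lists, 4 were lowest in replicate 3, against 7, 2, 8 and 5 in replicates 1, 2, 4 and 5.

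All 7 genes of CDK activation were called. Ccnh (896 ± 82.7), Cdk7 (212 ± 53.5) and Mnat1 (145 ± 21.4) form the CDK-activating kinase, and Cdc25b (308 ± 47.9) encodes a phosphatase that removes inhibitory phosphate from CDKs. Genes of protein degradation in G1 gave 8 of 9, with Cks1b (3007 ± 178, excess 7.30 ± 0.13), Cks2 (1840 ± 285), Skp1 (1353 ± 259) and Skp2 (641 ± 93.9) called. Skp2 and Cks1b take part in the breakdown of p27, the product of Cdkn1b. Fbxo31, an F-box gene tied to the breakdown of cyclin D1, was not called (14.0 ± 3.88; limma, adjusted p = 1).

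**Figure D5:**
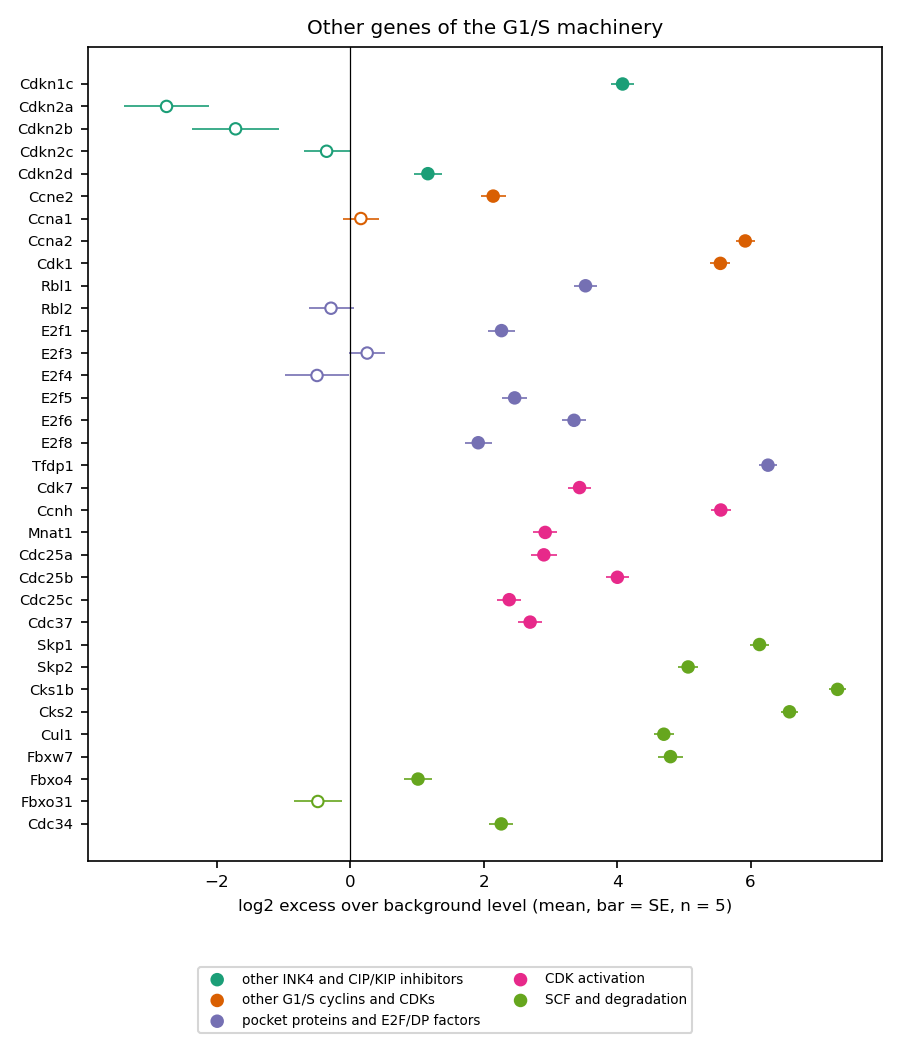
Each row is a gene of the 5 other G1/S lists. The x axis is the log2 excess of its brightest probe set over the background level, as mean over 5 samples with moderated SE. Filled symbols were called and open symbols were not. The 8 open symbols are Cdkn2a, Cdkn2b, Cdkn2c, Ccna1, Rbl2, E2f3, E2f4 and Fbxo31.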

How the data were processed

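RNA of 5 samples was hybridised to Affymetrix Mouse Genome 430A arrays after amplification from 10 ng of total RNA, per the labels' protocols. The authors deposited linear intensity, with 1 signal for each probe set. The values came from GCOS, per the submitters' processing notes; its version and settings are not given in the sources used here. Each array had a trimmed mean of 150.1 after leaving out 2% at each end, so arrays had been scaled alike. Of 22690 probe sets, 64 controls were left out. Symbols came from the platform annotation, updated by Entrez identifier to RefSeq (20351 of 20380 single-gene probe sets matched).

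Before log2 conversion, signals below 1 were set to 1. Detection used limma 3.58.1 in R 4.3.3 (lmFit, then eBayes with a robust trend; intercept only, one-sided) on log2 signal minus the level of the array, called at an adjusted p below 0.05; a gene was called if any of its probe sets was. The detection and variance tests were run on simulated data with independent normal noise, and the check for single outlying samples was not. That simulation cannot show how the tests behave under other kinds of noise. Members and lists were chosen with earlier results of these data known. The text names every member, the 5 nearest profiles and, per list, up to 4 called genes of largest excess and up to 3 uncalled ones of lowest. Alternatives were the level, normalization, pseudocount, moderation, filters, probe set class and leaving out each replicate. The number of arrays limits the precision.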

Additional observations from a re-analysis of the deposited data

Results flagged for a closer look

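Of 44 values checked, 22 probe sets on the scales of signal and log2 signal, 2 had a sample far from the other 4, with a gap over the range above 0.71; chance alone gives about 1 in 20. Ccnd2 1416124_at was high in replicate 1 (252, with the gap 0.765 of the range), and Cdkn1b 1419497_at was high in replicate 4 (391, with the gap 0.762 of the range). Both stood out on the scale of signal and not on that of log2 signal, and in neither gene was the brightest probe set highest in the same sample. Of the 7 Ccnd2 probe sets, 3 were highest in replicate 1, 2 in replicate 2 and 2 in replicate 4. Those highest in replicate 1 were 1416124_at, 1416123_at (651) and 1448229_s_at (214).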

How the results depend on the processing

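The counts of called member probe sets, member genes and other G1/S genes stayed within 1.5 times the main count under every alternative run, and without each replicate in turn they were 20, 9 and 26 as in the full set. The number of member probe sets with excess variance was 0 in the main test and with each replicate left out, and 1 without a filter on low signal, where Cdkn1b 1434045_at passed; the cause was not tested. At the higher level the excess of Ccnd1 1417419_at (-1.11) and Cdkn1a 1424638_at (-1.35) changed sign, and Ccnd1 1417420_at, Ccnd2 1416124_at and Ccnd3 lost their calls, since that level is by construction higher. With the 99th percentile as the level, Ccnd1 1417419_at and Cdkn1a 1424638_at lost theirs. Of 453 comparisons of single probe sets with an alternative, 427 kept direction and call. In 18 the ratio of variance to trend crossed from above to below the trend or back, for 12 probe sets, none of which passed the variance test. Leaving out 1 replicate in turn gave ratios from 0.793 to 1.41 for Ccnd1 1417420_at and from 0.650 to 1.80 for Ccne1 1416492_at. For Ccnd2 the ranges were 0.140 to 1.95 (1416122_at), 0.295 to 1.18 (1416123_at), 0.479 to 5.18 (1416124_at), 0.599 to 1.83 (1430127_a_at), 0.327 to 1.17 (1434745_at), 0.896 to 2.52 (1448229_s_at) and 0.294 to 2.39 (1455956_x_at). They were 0.232 to 2.29 for Cdk4 1422441_x_at, 0.641 to 3.35 for Cdkn1a 1424638_at and 0.216 to 2.62 for Cdkn1b 1419497_at. With quantile normalization Ccnd1 1417420_at gave 0.977 and Ccnd2 1434745_at 1.16; the cause was not tested. No paired analysis was possible because there is 1 group. Without raw probe values or detection calls, weak transcripts near the level cannot be resolved, and 5 arrays limit the variance test.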
